A study of Homo sapiens with 6 samples.

Results

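YAP1 and WWTR1, the gene of TAZ, were described in HepG2 cells together with 8 of their target genes and regulators: CTGF, CYR61, ANKRD1, AXL, AMOTL1, AMOTL2, LATS2 and AJUBA. These 10 genes were taken by symbol from the 34036 rows of a gene count table. HepG2 is a human line from a liver tumor. RNA, which the labels give as poly(A) RNA, of 3 cultures given a pool of siRNAs against DGUOK (siDGUOK) and 3 given a non-targeting siRNA (siControl) was sequenced 48 h after transfection with Lipofectamine RNAiMAX. How mRNA was enriched is not settled by the protocol text. The groups follow the titles and the names of the libraries, because the treatment entry is the control siRNA in all 6 labels. The comparison asks how loss of DGUOK, the mitochondrial kinase that phosphorylates purine deoxynucleosides, changes RNA levels.

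The totals on genes were 19065684, 18915508 and 10527216 counts in siControl replicates 1, 2 and 3. Those of siDGUOK replicates 1, 2 and 3 were 18613138, 15978314 and 21334876 counts. The smallest library therefore gives the least precise values for rare RNAs. Levels are given as CPM, counts scaled to a common library size, with sizes scaled by TMM. The level of DGUOK was 54.4, 53.1 and 48.2 CPM in siControl replicates 1, 2 and 3, and 9.08, 10.5 and 6.72 CPM in siDGUOK replicates 1, 2 and 3. Each siDGUOK library lay below each siControl library, so the targeted RNA fits the titles. On the log2 scale DGUOK fell by 2.57 with a standard error (SE) of 0.19, and its adjusted p was 1.64e-08 in edgeR's quasi-likelihood test with Benjamini-Hochberg adjustment.

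YAP and TAZ are coactivators without a DNA-binding domain of their own. They are carried to promoters and enhancers by the TEAD factors. In the Hippo pathway the kinases MST1 and MST2 activate LATS1 and LATS2, which phosphorylate YAP and TAZ and keep them in the cytoplasm or mark them for degradation. In liver the pathway restrains organ size, and several inhibitors of YAP and TAZ are themselves targets of both, which closes a feedback loop. The activity of YAP and TAZ is set largely by phosphorylation and location of the proteins, neither of which RNA levels measure.

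Genes count as called where edgeR's quasi-likelihood test over 14476 genes gave an adjusted p below 0.05 and the log2 fold change was above 0.5 in size. All 10 genes passed the count filter and were tested. CTGF, AMOTL2 and LATS2 were called lower in siDGUOK cells and AXL was called higher, so 4 of 10 were called, where 14.1% of all genes tested were. The share of all genes called higher was 7.42% and that called lower was 6.68%. At the adjusted p alone 6 of the 10 passed, with YAP1 and AJUBA added, where 19.7% of all genes did. Beside the lists given further on, the shares to read them against are 30.6% of all genes with an unadjusted p under 0.05 in edgeR's test and 12.7% of the 16999 genes tested by DESeq2 called there. The libraries of both groups did not overlap for the same 6 genes, where 36.0% of all genes tested were so separated. The median log2 fold change of the 10 genes was −0.07, beside 0.02 over all genes tested. The genes thus moved in both directions, and their median lay close to that of all genes. The 10 genes and the lists were chosen with earlier results of these data known. An excess of calls over these shares is therefore no independent evidence.

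**Figure D1:**
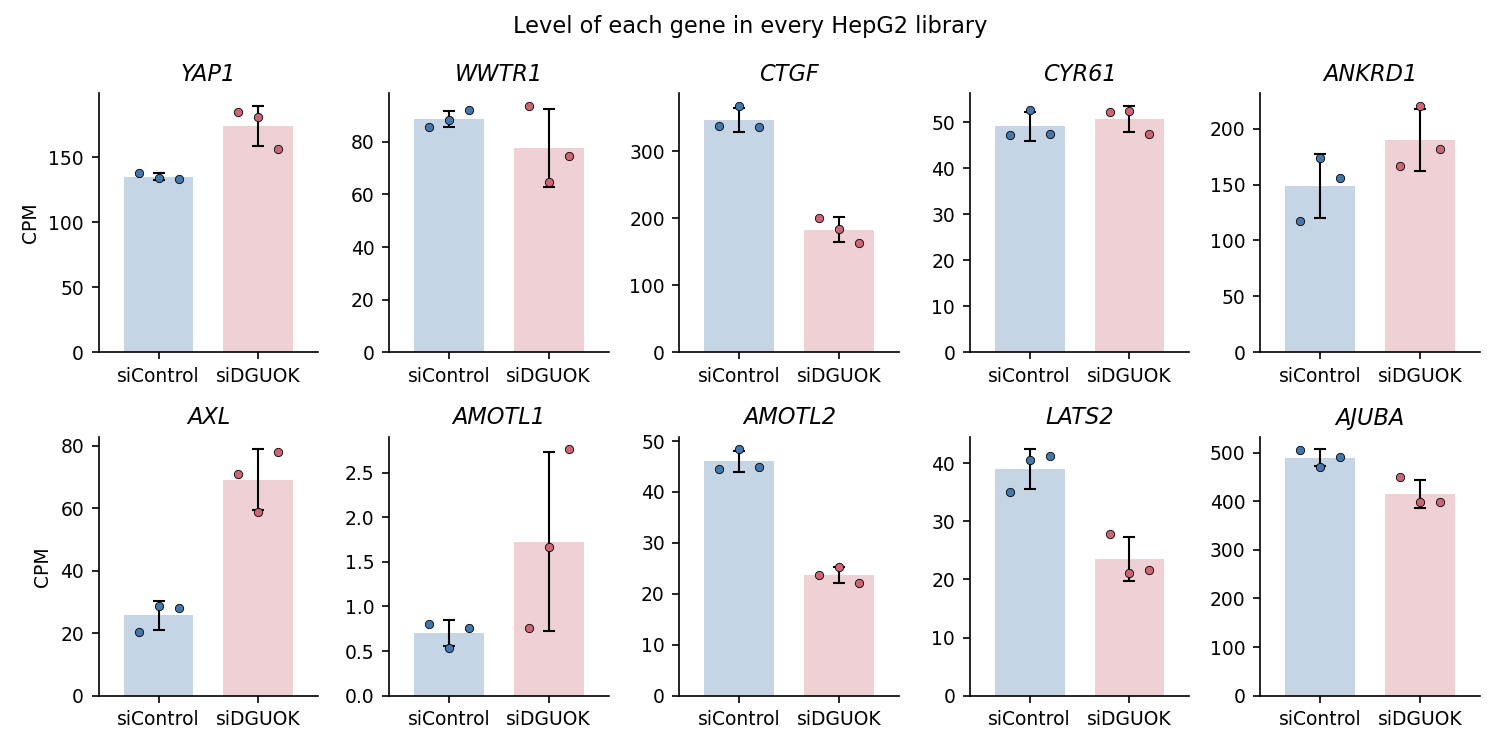
Level of each of the 10 genes in CPM (vertical axes, each starting at 0) in the 3 siControl and 3 siDGUOK libraries; points are libraries, bars are means and error bars are SD. CTGF, AMOTL2, LATS2 and AJUBA lie lower and YAP1 and AXL higher in every siDGUOK library than in every siControl library.

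The coactivator gene YAP1 (ENSG00000137693.13) occupies the plus strand of chromosome 11 between 102110447 and 102233424 (GRCh38). Measured YAP1 levels were 138, 134 and 133 CPM in siControl replicates 1, 2 and 3, and 185, 181 and 156 CPM in siDGUOK replicates 1, 2 and 3. All siDGUOK libraries were above all siControl libraries, and the third siDGUOK library was the nearest to them. The log2 fold change was 0.37 ± 0.09 (SE, adjusted p = 0.0067 in edgeR's test), which passed on the adjusted p and was too small for the fold change criterion. Without siDGUOK replicate 1 the adjusted p of edgeR's test was 0.0535, and over all alternatives it ran from 0.0029 to 0.0535. WWTR1 (ENSG00000018408.14), on the minus strand of chromosome 3 from 149517235 to 149736714, had 85.8, 88.3 and 92.0 CPM in the siControl libraries and 93.7, 64.7 and 74.6 CPM in the siDGUOK libraries. The siDGUOK libraries differed more among themselves, and the first of them was above every siControl library. With a log2 fold change of −0.19 ± 0.13 (SE, adjusted p = 0.346 in edgeR's test) WWTR1 was not called. Its log2 fold change depended on single libraries, at −0.36 without siDGUOK replicate 1 (adjusted p = 0.0615 in edgeR's test) and −0.07 without siDGUOK replicate 2 (adjusted p = 0.798). Over all alternatives the adjusted p ran from 0.0615 to 0.798. Exons of other genes on the opposite strand cover 10.1% of the exonic bases of YAP1 and 9.05% of those of WWTR1, where WWTR1-AS1 lies. Counting ignored strand, so reads there cannot be assigned to either gene.

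The ratio of both coactivators within a library does not depend on the scaling. The log2 ratio of YAP1 to WWTR1 counts was 0.68, 0.60 and 0.53 in the siControl libraries and 0.98, 1.48 and 1.07 in the siDGUOK libraries. No siDGUOK library reached down to the siControl values. The difference of means was 0.57, with an exact two-sided permutation p = 0.1, the smallest that 3 against 3 libraries allow. This ratio is 1 of 3 that were chosen after the values were seen, and its Benjamini-Hochberg adjusted p over the 3 was also 0.1.

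TEAD1 to TEAD4 are the DNA-binding partners, and the VGLL proteins compete with YAP and TAZ for them. Of 8 genes in this list, 7 were in the table and 6 were tested. TEAD2 was called higher and 0 were called lower in edgeR's test, beside 7.42% and 6.68% of all genes tested. With 6 genes tested, 1 call is near the 14.1% of all genes called. The list's median log2 fold change was 0.35, beside 0.02 over all genes tested. DESeq2 called 2 genes of the list, and 4 had an unadjusted p under 0.05 in edgeR's test. TEAD2 had 36.4, 36.9 and 36.7 CPM in the siControl libraries and 48.8, 55.3 and 53.0 CPM in the siDGUOK libraries. The groups did not overlap, and the log2 fold change was 0.51 ± 0.13 (SE, adjusted p = 0.0094 in edgeR's test), just past the threshold. Its call was lost without siDGUOK replicate 2, without siDGUOK replicate 3 and with DESeq2's shrunken fold changes, and its log2 fold change ran from 0.47 to 0.55 over the alternatives. TEAD4, with a log2 fold change of 0.42 ± 0.15 (SE, adjusted p = 0.0473 in edgeR's test), passed the adjusted p alone. VGLL3 had 0, 0 and 6 counts in the siControl libraries and 48, 53 and 31 counts in the siDGUOK libraries. The groups did not overlap, and the log2 fold change of 3.83 ± 1.45 (SE, adjusted p = 0.0746 in edgeR's test) was not called. VGLL3 was called higher in 4 of 14 alternatives: DESeq2 with and without shrinkage, no count filter, and without siControl replicate 3. Its log2 fold change ran from 0.54 to 8.51 over the alternatives, so its size is not determined at these counts. The log2 fold changes of TEAD1 and TEAD3 were 0.02 and −0.10, and neither was called.

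CTGF (ENSG00000118523.5, now named CCN2) encodes a secreted matricellular protein and is among the most widely used reporters of YAP and TAZ activity. It is found on the minus strand of chromosome 6, from 131948176 to 131951372. Its promoter and those of AMOTL2, LATS2 and ANKRD1 are printed because CTGF, AMOTL2 and LATS2 were called lower and ANKRD1, another classical target, was not. The sequences are from RefSeq on GRCh38.p14, each 300 bases around a start site, 5′ to 3′ on the strand of the gene. Capitals mark GGAATG, the core of TEAD sites, on either strand. On the opposite strand it reads CATTCC. In ANKRD1 they also mark a match to TGANTCA, the AP-1 motif. The windows lie at chr6:131951323-131951622 for CTGF, chr3:134374398-134374697 for AMOTL2, chr13:21061537-21061836 for LATS2 and chr10:90921038-90921337 for ANKRD1, all on the minus strand.
CTGF: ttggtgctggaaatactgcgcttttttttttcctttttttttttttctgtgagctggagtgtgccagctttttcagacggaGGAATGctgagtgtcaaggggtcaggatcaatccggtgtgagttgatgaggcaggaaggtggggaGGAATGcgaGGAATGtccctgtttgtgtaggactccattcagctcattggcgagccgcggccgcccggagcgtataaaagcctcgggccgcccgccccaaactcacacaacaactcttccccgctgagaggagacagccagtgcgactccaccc
AMOTL2: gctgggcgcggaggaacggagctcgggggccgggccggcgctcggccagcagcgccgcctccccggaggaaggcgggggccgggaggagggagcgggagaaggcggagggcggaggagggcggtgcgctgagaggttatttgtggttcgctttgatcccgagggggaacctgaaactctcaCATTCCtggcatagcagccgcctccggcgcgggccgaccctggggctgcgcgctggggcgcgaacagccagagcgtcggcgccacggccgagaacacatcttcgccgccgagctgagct
LATS2: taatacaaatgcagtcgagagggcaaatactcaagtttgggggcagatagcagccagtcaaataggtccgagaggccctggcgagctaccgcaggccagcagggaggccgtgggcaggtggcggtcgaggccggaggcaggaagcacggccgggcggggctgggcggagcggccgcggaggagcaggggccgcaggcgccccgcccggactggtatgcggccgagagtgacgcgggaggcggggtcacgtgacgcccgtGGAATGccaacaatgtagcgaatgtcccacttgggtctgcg
ANKRD1: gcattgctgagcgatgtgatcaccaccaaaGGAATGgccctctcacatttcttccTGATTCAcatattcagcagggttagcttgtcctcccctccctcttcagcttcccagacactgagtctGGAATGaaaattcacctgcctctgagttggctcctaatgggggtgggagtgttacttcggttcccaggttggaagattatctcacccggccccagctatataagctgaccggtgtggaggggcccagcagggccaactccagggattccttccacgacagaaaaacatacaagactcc
The CTGF window holds 3 such cores, at positions −169, −104 and −95 from the start site. ANKRD1 holds 2, at −220 and −128, with the AP-1 match at −195, while AMOTL2 and LATS2 hold 1 each, at −69 and 10. Of all 35116 windows in the table, 14.0% hold GGAATG on either strand, 7.71% hold TGANTCA and 1.29% hold the CArG box of SRF.

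Windows were found for 9 of the 10 genes, all but CYR61, and number 13 in all because some genes have several start sites. GGAATG occurs in 7 of these 13, in at least 1 window of 7 genes. YAP1 (at −162), AJUBA (at −59 in its second window) and AXL (at −212 in its second window) also hold 1 core each. The AMOTL2 window printed is the second of 2, and the first holds no match. These letters are not in the windows of AMOTL1 and WWTR1. A match describes the sequence and does not show binding. Matches occur beside genes that fell, rose and were not called.

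**Figure D2:**
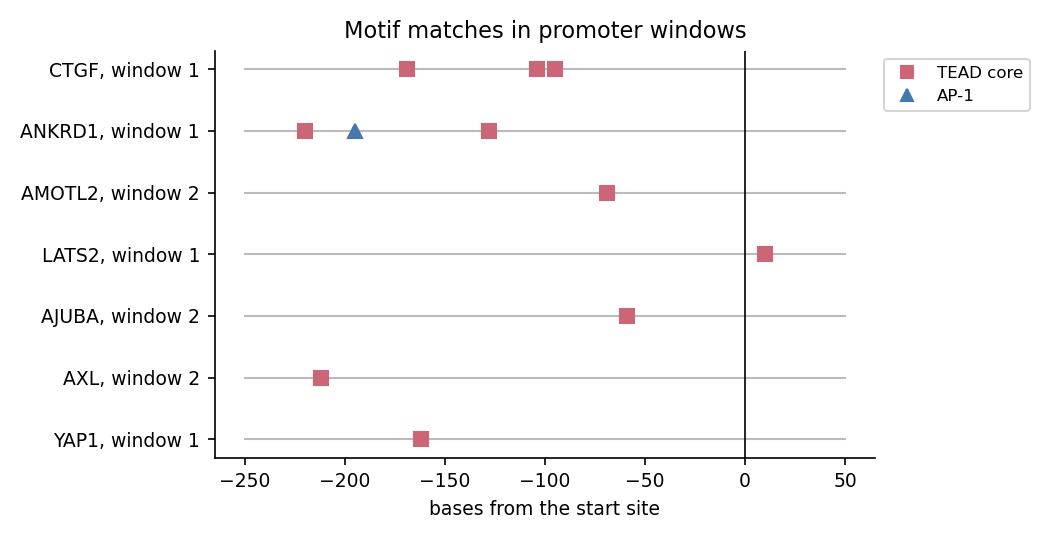
Positions of GGAATG on either strand (TEAD core, squares) and of TGANTCA (AP-1, triangle) in bases from the start site (horizontal axis) for the 7 windows with a match; grey lines are the 300 bases searched. CTGF holds 3 cores between −169 and −95 and ANKRD1 holds 2, at −220 and −128.

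The level of CTGF was 338, 368 and 336 CPM in siControl replicates 1, 2 and 3, and 200, 184 and 163 CPM in siDGUOK replicates 1, 2 and 3. The highest siDGUOK library was far below the lowest siControl library. Its log2 fold change was −0.93 ± 0.09 (SE, adjusted p = 3.81e-07 in edgeR's test). Opposite-strand exons of LINC01013 cover 11.9% of the exonic bases of CTGF. CYR61 (ENSG00000142871.16, now CCN1), its paralogue on the plus strand of chromosome 1 from 85580761 to 85584589, is also a secreted matricellular protein and a standard target. It had 47.3, 52.8 and 47.4 CPM in the siControl libraries and 52.4, 52.5 and 47.6 CPM in the siDGUOK libraries. These values overlapped throughout, with a log2 fold change of 0.05 ± 0.13 (SE, adjusted p = 0.865 in edgeR's test).

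The proportion of both CCN genes was also compared within each library. The log2 ratio of CTGF to CYR61 counts was 2.84, 2.80 and 2.83 in the siControl libraries and 1.93, 1.81 and 1.77 in the siDGUOK libraries. Replicates lay close together in each group and the groups were far apart. The difference was −0.98 (exact two-sided permutation p = 0.1, the smallest possible). This ratio, too, was chosen after the values were seen. As CYR61 was flat, it restates the fall of CTGF and is no separate evidence.

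**Figure D3:**
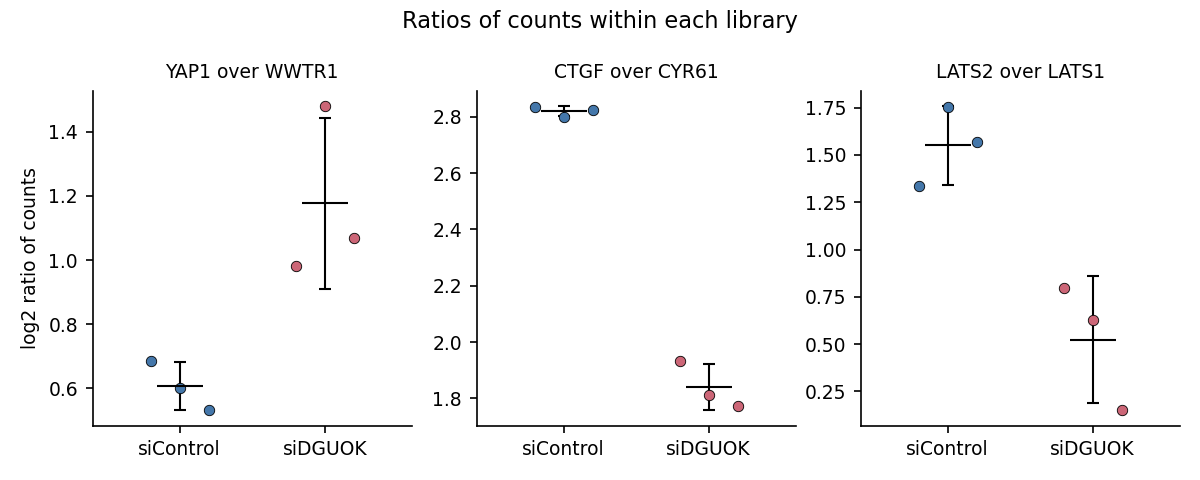
The log2 ratio of counts within each library (vertical axes, not starting at 0) for YAP1 over WWTR1, CTGF over CYR61 and LATS2 over LATS1; points are libraries, lines are means and error bars are SD (n = 3). The mean went from 0.61 to 1.18 for YAP1 over WWTR1, from 2.82 to 1.84 for CTGF over CYR61 and from 1.55 to 0.52 for LATS2 over LATS1.

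ANKRD1 (ENSG00000148677.6), on the minus strand of chromosome 10 from 90912096 to 90921087, encodes an ankyrin repeat protein of muscle and other cells. Its level was 118, 173 and 156 CPM in the siControl libraries and 167, 220 and 181 CPM in the siDGUOK libraries. The first siDGUOK library lay inside the siControl range, and with a log2 fold change of 0.35 ± 0.13 (SE, adjusted p = 0.0628 in edgeR's test) ANKRD1 was not called. Its log2 fold change ran from 0.20 without siControl replicate 1 to 0.47 without siControl replicate 2. The adjusted p of edgeR's test was under 0.05 in 4 alternatives, at 0.0056 without the count filter, 0.0076 with a replicate block, 0.0222 without siControl replicate 2 and 0.0435 for genes of a mean above 10 CPM. It reached 0.293 without siControl replicate 1, the highest of all alternatives. AXL (ENSG00000167601.11), on the plus strand of chromosome 19 from 41219223 to 41261766, encodes a receptor tyrosine kinase that binds GAS6. It had 20.3, 28.8 and 28.1 CPM in the siControl libraries and 70.9, 58.7 and 77.9 CPM in the siDGUOK libraries. The lowest siDGUOK library was above the highest siControl library. AXL rose with a log2 fold change of 1.43 ± 0.16 (SE, adjusted p = 3.31e-06 in edgeR's test), while its paralogues TYRO3 and MERTK had log2 fold changes of −0.31 and −0.44 and were not called.

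Restraints of YAP and TAZ include AMOTL1 and AMOTL2, junction proteins of the motin family that bind YAP and activate LATS kinases. AMOTL2 (ENSG00000114019.14), on the minus strand of chromosome 3 from 134355347 to 134375479, had 44.6, 48.4 and 45.0 CPM in the siControl libraries and 23.8, 25.2 and 22.1 CPM in the siDGUOK libraries. Every siDGUOK library was below every siControl library, with a log2 fold change of −0.96 ± 0.15 (SE, adjusted p = 1.28e-04 in edgeR's test). AMOTL1 (ENSG00000166025.17), on the plus strand of chromosome 11 from 94706431 to 94876748, was near the limit of detection, with 15, 10 and 8 counts in the siControl libraries and 14, 27 and 60 counts in the siDGUOK libraries. The siDGUOK libraries ranged widely and the first was inside the siControl range in CPM. At this depth its log2 fold change of 1.30 has a standard error of 1.08, and it was not called. Without siDGUOK replicate 3 the log2 fold change was 0.77. The third motin gene, AMOT, was not tested, with counts in a single library.

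LATS2 (ENSG00000150457.8), the kinase that phosphorylates YAP and TAZ, lies on the minus strand of chromosome 13 from 20973036 to 21061586. It had 35.0, 40.5 and 41.3 CPM in the siControl libraries and 27.8, 21.2 and 21.6 CPM in the siDGUOK libraries. The groups did not overlap, and the first siDGUOK library was the nearest to the siControl libraries. The log2 fold change was −0.73 ± 0.17 (SE, adjusted p = 0.0045 in edgeR's test). Its paralogue LATS1 had a log2 fold change of 0.31 ± 0.23 (SE) and was not called. The log2 ratio of LATS2 to LATS1 counts was 1.34, 1.75 and 1.57 in the siControl libraries and 0.79, 0.63 and 0.15 in the siDGUOK libraries. The groups again did not overlap (difference −1.03, exact two-sided permutation p = 0.1), in a ratio also chosen after the values were seen.

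AJUBA (ENSG00000129474.15), on the minus strand of chromosome 14 from 22971177 to 22982551, encodes a LIM protein of junctions that binds and inhibits LATS kinases. Its level was 506, 471 and 491 CPM in the siControl libraries and 449, 398 and 398 CPM in the siDGUOK libraries. All siDGUOK libraries were lower, by a log2 fold change of −0.24 ± 0.08 (SE, adjusted p = 0.0337 in edgeR's test), under the fold change threshold. The adjusted p was above 0.05 without siControl replicate 1 (0.123), siControl replicate 3 (0.136), siDGUOK replicate 2 (0.135) or siDGUOK replicate 3 (0.120) and without the count filter (0.0623), all in edgeR's test. Over all alternatives it ran from 0.0061, in DESeq2, to 0.136. The other LIM genes of its family, LIMD1 and WTIP, had log2 fold changes of 0.36 and −0.08 and were not called. Of 12 paralogues of the 10 genes, 6 were tested and 0 were called in edgeR's test, where 14.1% of all genes tested were called. DESeq2 called 0 of them, and 3 had an unadjusted p under 0.05. The median over the 6 was 0.05 in log2 fold change.

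Per kilobase of exon, the order of the genes can be compared. The length is that of all annotated exons of a gene combined, not of the RNA expressed in HepG2. The order therefore also depends on the annotation. In siControl cells CTGF was the highest at 148 ± 7.67 CPM per kb (SD, n = 3), followed by ANKRD1 at 83.3 ± 16.0 and AJUBA at 83.2 ± 2.98, which did not differ beyond their spread. YAP1 was next at 21.4 ± 0.391 CPM per kb, then CYR61 at 13.3 ± 0.855 and WWTR1 at 10.6 ± 0.374. AMOTL2 and LATS2 overlapped at 7.10 ± 0.321 and 6.94 ± 0.608 CPM per kb, and AXL and AMOTL1 were last at 5.02 ± 0.922 and 0.0697 ± 0.0145. YAP1 thus exceeded WWTR1 in both groups. In siDGUOK cells ANKRD1 was the highest at 106 ± 15.5 CPM per kb, and CTGF at 78.0 ± 8.01 overlapped AJUBA at 70.5 ± 4.99. AXL at 13.5 ± 1.89 CPM per kb overlapped CYR61 at 13.7 ± 0.759, and LATS2 overlapped AMOTL2 at 4.19 ± 0.664 and 3.66 ± 0.235.

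**Figure D4:**
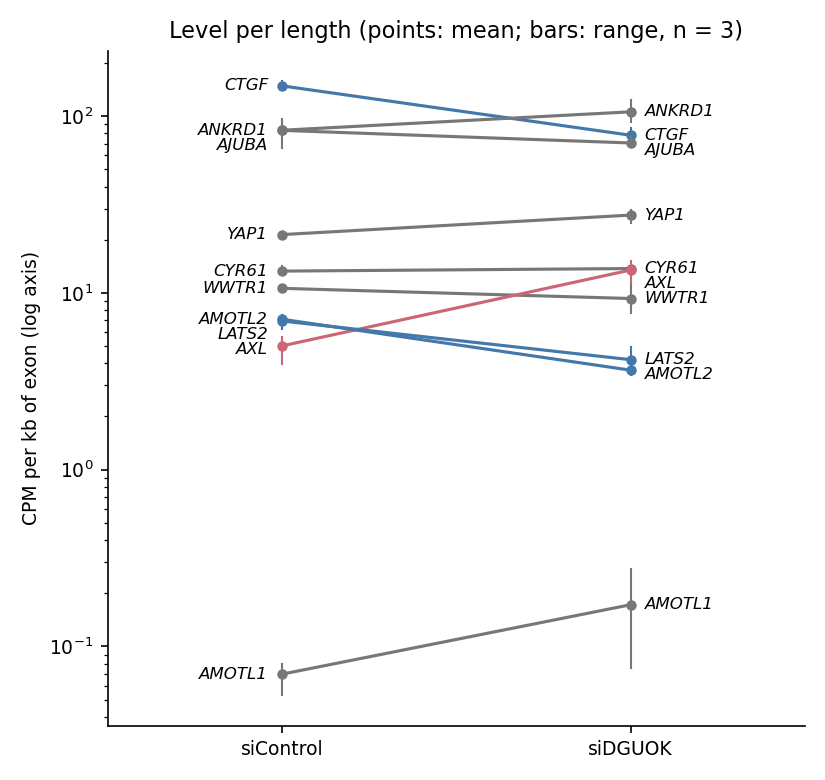
Mean level per kilobase of exon on a log axis (vertical, CPM per kb) in siControl and siDGUOK cells; thin bars span the lowest and highest of 3 libraries, with genes called higher in red, lower in blue and not called in grey. CTGF was first in siControl cells at 148 CPM per kb and ANKRD1 was first in siDGUOK cells at 106.

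Other genes of the pathway were taken from lists. In the Hippo kinase cascade and its scaffolds, 18 genes were tested, of which 1 was called higher and 2 lower, with a median log2 fold change of −0.06. This is near the 14.1% of all genes called. STK4, the gene of MST1, rose by a log2 fold change of 0.60 ± 0.13 (SE), a call lost without siDGUOK replicate 3. WWC2, a scaffold of LATS kinases, had a log2 fold change of −0.55 ± 0.15 (SE), a call lost without siDGUOK replicate 2, where it was −0.37. LATS2 was the other gene called lower. MAP4K4, which can phosphorylate LATS kinases, passed the adjusted p alone at −0.30. Of 16 tested LATS inhibitors, junction and polarity genes, 0 were called higher in edgeR's test and 2 lower, AMOTL2 and PATJ, and 6 had an unadjusted p under 0.05. DESeq2 called 2 in all. PATJ, a scaffold of the Crumbs polarity complex, had a log2 fold change of −0.77 ± 0.18 (SE), while the list's median was −0.13. FAT1 and CTNNA1 passed the adjusted p of edgeR's test alone, both at a log2 fold change of 0.32 (0.0240 and 0.0084), with every siDGUOK library above every siControl library, as did AJUBA at −0.24 in the other direction.

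A list of 22 YAP and TAZ target genes, which holds 6 of the 10 genes, had 19 tested. Their median log2 fold change was 0.23. The calls among them were 5 higher and 4 lower, beside shares of 7.42% and 6.68% over all genes tested. By edgeR, 12 of the 19 had an unadjusted p under 0.05, beside a share of 30.6%. DESeq2 called 9 genes of this list, beside a share of 12.7%. Apart from those 6 genes, 13 were tested, with a median of 0.25. Of these, 4 were called higher and 1 lower, beside the same 7.42% and 6.68% of all genes. MYOF, a membrane repair protein, had 4.97, 3.46 and 3.81 CPM in the siControl libraries and 9.56, 19.9 and 14.4 CPM in the siDGUOK libraries. The siDGUOK libraries were all higher, with a log2 fold change of 1.84 ± 0.33 (SE). ASAP1, a GTPase-activating protein of ARF, rose by 0.75 ± 0.16 (SE) and GADD45A, a stress-response gene, by 0.65 ± 0.12 (SE) in log2 fold change. CCDC80 had 0 counts in each siControl library and 17, 33 and 13 counts in the siDGUOK libraries. Against a floor of 3 counts per library it was at least 5.85-fold higher, or at least 3.75-fold without siDGUOK replicate 2, and the list's median with this bound was also 0.23. Its call was lost in 7 of 14 alternatives, among them every fit without 1 siControl library and those without siDGUOK replicate 1 or 2. ARHGEF17, a RhoA exchange factor, had a log2 fold change of −0.98 ± 0.15 (SE) and was the gene called lower outside the 6. NT5E passed the adjusted p of edgeR's test alone (0.0147) at a log2 fold change of −0.46, with every siDGUOK library below every siControl library. It was called lower in 4 alternatives, 3 of them fits without 1 library, so the count of 1 lower depends on the threshold.

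**Figure D5:**
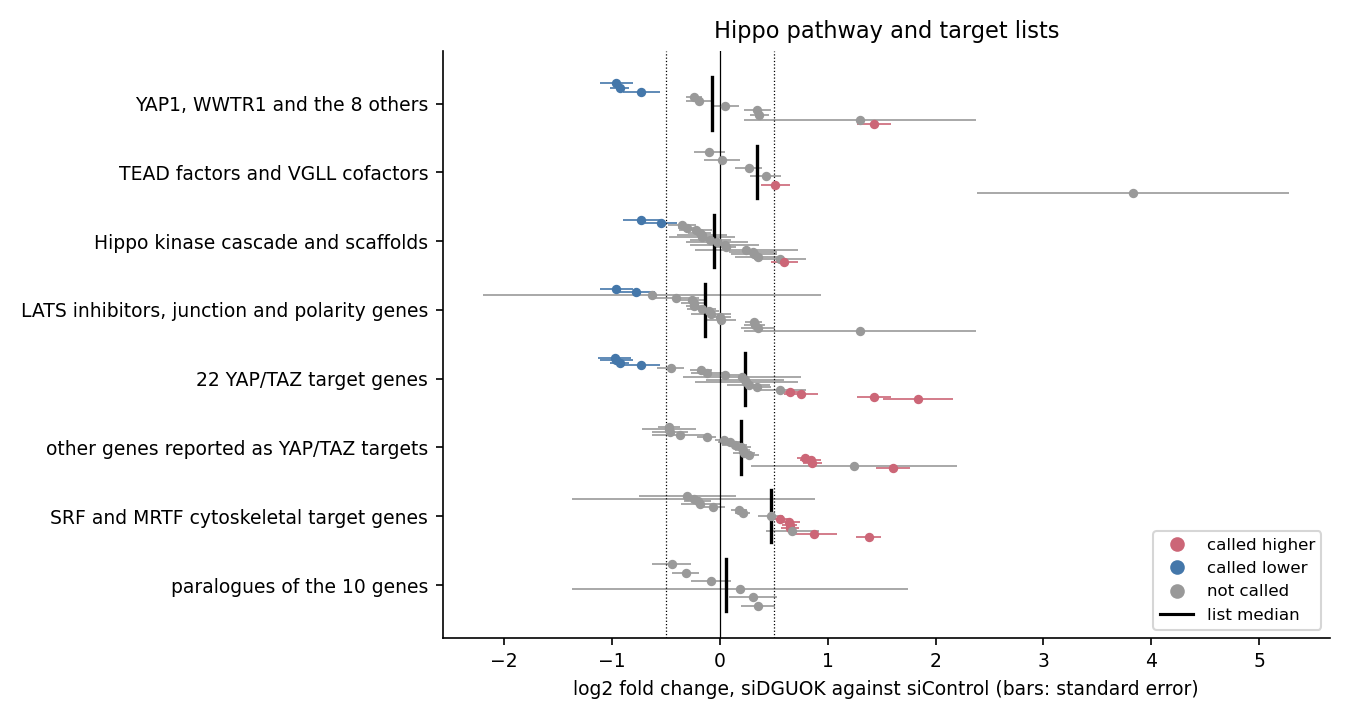
Log2 fold change of siDGUOK against siControl (horizontal axis) for each tested gene of 8 lists, with standard errors; red and blue points were called higher and lower, black bars are list medians, dotted lines mark the threshold of 0.5, and CCDC80, at 0 in siControl, is not drawn. Target genes lie on both sides of 0, and the median of the SRF and MRTF list is 0.47.

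Among 17 tested further genes reported as YAP and TAZ targets, 4 were called higher and 0 lower in edgeR's test, and 10 had an unadjusted p under 0.05 in either direction, where 7.42% of all genes were called higher and 30.6% had such a p. DESeq2 called 4 of them, and the median log2 fold change was 0.20. DAB2, an endocytic adaptor, rose by a log2 fold change of 1.61 ± 0.16 (SE), JAG1, a Notch ligand, by 0.86 ± 0.09 (SE), SPP1, which encodes osteopontin, by 0.84 ± 0.10 (SE) and CCND1, which encodes cyclin D1, by 0.79 ± 0.08 (SE). THBS1, a secreted protein often read as a target, had a log2 fold change of 0.14 and was not called. The count of 0 lower depends on the threshold. DLC1 had a log2 fold change of −0.47 (adjusted p = 0.0020 in edgeR's test) and NOTCH2 one of −0.46 (adjusted p = 0.0606), with all siDGUOK libraries below the siControl libraries. DLC1 was called lower in 3 alternatives and NOTCH2 in 1. FLNA and TGM2 passed the adjusted p alone in the other direction, at 0.21 and 0.27.

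SRF with its MRTF coactivators controls cytoskeletal genes and shares some targets with YAP and TAZ. Of 15 tested genes in this list, 6 were called higher and 0 lower in edgeR's test, 10 had an unadjusted p under 0.05, and DESeq2 called 6. Of all genes tested 7.42% were called higher and 30.6% had an unadjusted p under 0.05. The median log2 fold change was 0.47, beside 0.02 over all genes tested. FHL2, a LIM protein, had 50.4, 63.5 and 68.9 CPM in the siControl libraries and 152, 154 and 170 CPM in the siDGUOK libraries. Its groups were far apart, with a log2 fold change of 1.38 ± 0.12 (SE). TAGLN rose by 0.87 ± 0.22 (SE), a call lost without siDGUOK replicate 3. CNN2, TPM4, TPM1 and ACTG1, all actin or actin-binding proteins, rose by 0.65, 0.65, 0.64 and 0.56 in log2 fold change. ACTA2, VCL and SRF itself had log2 fold changes of −0.18, −0.20 and −0.06 and were not called. ZYX, at 0.47, and FLNA passed the adjusted p of edgeR's test alone, and ZYX was called higher in 3 alternatives.

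Markers of cell types were read in the same libraries. Every library is labelled HepG2, a single cell line, so the design holds no mixture of cell types. In bulk RNA, fewer cells that express a marker and less of its RNA per cell cannot be told apart. Of 8 hepatocyte markers, 7 were called lower and 0 higher, where 6.68% of all genes were called lower. By CPM, ALB was the most abundant in each siControl library and SERPINA1 in each siDGUOK library. DESeq2 called 7, and 7 had an unadjusted p under 0.05 in edgeR's test. Their summed level was 40460, 34893 and 34605 CPM in the siControl libraries and 20219, 18024 and 16908 CPM in the siDGUOK libraries. SERPINA1 was the exception, with a log2 fold change of 0.02. The call of HNF4A, at a log2 fold change of −0.51, was lost without siControl replicate 1 and without siDGUOK replicate 3. Of 5 tested cholangiocyte markers, KRT19 was called higher, with a log2 fold change of 1.51, and EPCAM lower, with −0.82. Over all genes tested, 14.1% were called. DESeq2 called 2 of them, and 3 had an unadjusted p under 0.05 in edgeR's test. KRT19 was the most abundant of that list in every library, whose summed level was 1406, 1641 and 1658 CPM in the siControl libraries and 2868, 3062 and 3252 CPM in the siDGUOK libraries.

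Fibroblast and stellate cell markers summed to 12.1, 15.0 and 10.3 CPM in the siControl libraries and 42.4, 57.0 and 21.6 CPM in the siDGUOK libraries. Of 8 such genes 3 were tested, COL1A1 was called higher and PDGFRB lower, and THY1 was at 0 in every library. The shares to set beside these calls and those of the endothelial markers are 7.42% of all genes called higher and 6.68% called lower. COL1A2, also tested, had 14, 0 and 0 counts in the siControl libraries and 124, 169 and 0 counts in the siDGUOK libraries. It was called higher in 2 alternatives. COL3A1, which was not tested, had 0, 1 and 0 counts against 148, 254 and 9 counts, without overlap. DESeq2 called 4 of these markers, and 3 had an unadjusted p under 0.05 in edgeR's test. By CPM, PDGFRB was the most abundant in each siControl library and COL1A1 in each siDGUOK library. PDGFRA, DCN and LUM were at 0 in the siControl libraries and at 0 in siDGUOK replicate 3. The call of PDGFRB was lost in 5 of the 6 fits without 1 library, all but that without siDGUOK replicate 2. Endothelial cell markers summed to 14.9, 13.4 and 12.2 CPM in the siControl libraries and 68.3, 161 and 107 CPM in the siDGUOK libraries. Of 6 such genes 4 were tested, and TIE1, the most abundant in every library, was called higher. TIE1 alone had 63.1, 98.7 and 103 CPM in the siDGUOK libraries, which is most of each sum. DESeq2 called 2 of them, and 3 had an unadjusted p under 0.05 in edgeR's test. KDR and CLEC14A were at 0 in the siControl libraries, and KDR, CLEC14A and VWF were at 0 in siDGUOK replicate 3. In siDGUOK replicate 2 PECAM1 had 15.9 and CDH5 8.93 CPM, against at most 2.81 and 1.84 CPM in the other libraries. VWF had 31.4 CPM in siDGUOK replicate 2 and at most 1.40 CPM in the other libraries. Blood cell markers had 6 genes tested and 0 called in edgeR's test or DESeq2, 0 with an unadjusted p under 0.05, and LYZ as the most abundant in every library. Their sums were 1614, 1703 and 1705 CPM in the siControl libraries and 1902, 1758 and 1769 CPM in the siDGUOK libraries. LYZ alone had 1610, 1696 and 1700 CPM and 1896, 1746 and 1764 CPM, so the sums do not describe the other markers. PTPRC had 7.94 CPM in siDGUOK replicate 2 and at most 2.93 CPM in the other libraries, and was called higher in 2 alternatives. CD3E had 3.63 CPM in siDGUOK replicate 2 and at most 1.08 CPM in the other libraries. AXL and MYOF are also expressed in fibroblasts and endothelial cells. Of the siDGUOK libraries, replicate 2 had the lowest AXL, at 58.7 CPM, and the highest MYOF, at 19.9 CPM. CCDC80, VGLL3 and FSTL1, the last from the list of further targets, were also highest there, at 2.03, 3.26 and 7.63 CPM. The labels name only HepG2 cells. The part of RNA from any other cells in the values of these genes was not tested. Nor was that of the fall of hepatocyte markers in the values of CTGF, AMOTL2 and LATS2.

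Genes with a pattern like that of CTGF were sought over the 6 libraries among 9217 genes of at least 10 CPM on average. The likeness was the root mean square difference of log2 CPM centred on each gene's mean. The 5 closest were FADS2, ACAA2, F2, PIGS and CYB5A, at 0.04 to 0.07. All were called lower, which follows from the fall of CTGF that they were chosen to match. FADS2, a fatty acid desaturase, went from 182 ± 8.27 to 93.8 ± 7.16 CPM (SD, n = 3), and F2, which encodes prothrombin, from 1009 ± 16.5 to 532 ± 45.0 CPM. The 5 closest to CYR61 were RAP1GDS1, PSMA7, NINJ1, DHX35 and EPS8L2, at 0.03 to 0.04, and 0 of these were called, which follows from the flat pattern of CYR61.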

How the data were processed

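The authors deposited raw counts of reads per gene for 6 HepG2 libraries, 3 siControl and 3 siDGUOK. They removed reads of tRNA, rRNA, adapters and spike-ins, mapped read pairs with STAR 2.6.1 on GRCh38, discarded reads of low complexity and used featureCounts 1.6.5, whose defaults take no account of strand and skip multi-mapping reads. Kit and strandedness are not given in the sources used here. Every pair of replicates differed beyond sampling noise, with a chi-square over degrees of freedom of 10.7 to 25.7.

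In R 4.3.3 with edgeR 4.0.16, counts were filtered (filterByExpr, minimum count 10), scaled by TMM on totals over all genes, and compared by the quasi-likelihood test, with Benjamini-Hochberg adjustment. Standard errors are the log2 fold change over the square root of F. Library sizes over all genes, with TMM after the filter, were chosen from 5 settings run, because they gave the number of calls known from earlier work on these data. That agreement was selected and is no independent check. The matched number is not the one the study published, which came from DESeq2 with shrunken fold changes and a limit on mean expression. The 5 gave 2032 to 2051 calls and the same 4 of the 10 genes, and robust dispersions did not change the number of calls. Gencode 44 (GRCh38) gave positions and exonic lengths, and 98.8% of gene IDs matched. Named are DGUOK, the 10 genes, list members and genes most like CTGF and CYR61. Members and lists were chosen with earlier results of these data known. The scripts were tested on simulated data. Alternatives were RLE and upper-quartile scaling, DESeq2 1.42.0 with and without shrinkage, no filter, a mean CPM above 10, a replicate block, no fold change threshold, library sizes after the filter with robust dispersions, and each library left out. Floors and counting errors cover counting only.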

Additional observations from a re-analysis of the deposited data

How the results depend on the processing

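CTGF, AMOTL2, LATS2 and AXL were called in the same direction in all 15 alternatives, and the log2 fold changes nearest to 0 were −0.86, −0.88, −0.65 and 1.28. CYR61, ANKRD1 and WWTR1 were called in none of them, nor was AMOTL1 in the 14 that tested it. Without a fold change threshold YAP1 and AJUBA were also called, which makes 2 of the 10 genes called higher, and the lists had 2 TEAD and VGLL genes, 5 LATS inhibitors, junction and polarity genes and 7 further target genes called; fewer criteria give more calls by construction. DESeq2 and the test without a count filter each called 2 TEAD and VGLL genes, TEAD2 and VGLL3, and the cause was not tested. With 1 library left out this list had 0 to 2 genes called and the paralogues 0 to 1. The fold change of VGLL3, with 0, 0 and 6 counts in the siControl libraries, is imprecise at this depth. YAP1 and AJUBA lost their pass on the adjusted p alone in 1 and 5 alternatives, and ANKRD1 gained one in 4.

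Library sizes computed after the filter, with robust dispersions, were run first and gave 2032 calls, of which 2000 are among the 2041 reported. The setting reported was chosen from 5 run, by its match to a known number of calls, and this alternative was added after seeing the data. TMM before the filter gave 2050 and 2051 calls. A replicate block gave 2077 calls, of which 1964 were shared, and 4 of the 10 genes. Libraries with the same replicate number showed no shared deviation across genes. The correlation across genes of deviations from the group means was 0.024, 0.017 and −0.0022 for the same number. This cannot show whether libraries of the same number were handled together.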
